A study of Mus musculus with 4 samples.

Results

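Chemokines and interleukins were followed across 4 Affymetrix expression arrays of mouse melan-a melanocytes, an immortal line of pigment cells, with 1 array per condition. The members were the genes whose symbol in the platform annotation follows the pattern Ccl, Cxcl, Cx3cl, Xcl or Il, a number and at most 1 letter. The pattern matched 64 symbols, of which 3 (Il7r, Il9r and Il21r) are receptors and were left out. This left 61 members of 18193 genes in all, 33 chemokines and 28 interleukins. Where a gene had several probe sets, the one with the highest mean over the 4 arrays was read. Interleukin-1 relatives that the annotation calls by an older symbol of the form Il1f fall outside the pattern.

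The 4 conditions were Hmhi cells starved without added EGF, EGF-treated Hmhi cells, Hmhi cells carrying the construct pS-Miz1 and labelled Miz1 kd, and Hmhi-MYC-TA cells, the last 3 all treated with EGF. Every culture spent 14 days in starvation medium, DMEM with 10% dialyzed serum and antibiotics, and EGF, the epidermal growth factor, was given at 100 ng/ml. All cells had been grown beforehand in medium with 10% serum, 200 nM of the phorbol ester TPA and 12 nM cholera toxin. What Hmhi and MYC-TA stand for is not spelled out in the labels, nor whether a line is 1 clone. By its title, the study is about melanocyte senescence under the control of Myc and Miz-1.

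Chemokines are small secreted proteins that guide migrating leukocytes through receptors on their surface, and interleukins are secreted signals between cells of the immune system and their surroundings. Both are made by many non-immune cells too. Several of them, IL-6 and the neutrophil-attracting chemokines among them, are known parts of the secretion of senescent cells, and others, such as CXCL10 and CCL5, are known to follow interferon and NF-kB signalling. In skin, melanocytes and keratinocytes can both make such factors.

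There were no replicates, so each difference compares 2 arrays and no test was run. Levels are log2 signals, and differences are log2 differences, the first array named minus the second. An array's median is that of its non-control probe sets, 6.66 in each array. Signals below it are dim, and a fold that starts from them is limited by background. The SD between probe sets of 1 gene was 0.32 for EGF-treated Hmhi minus starved Hmhi, 0.22 for the Miz1 kd-labelled array minus EGF-treated Hmhi, 0.25 for MYC-TA minus EGF-treated Hmhi and 0.41 for MYC-TA minus the Miz1 kd-labelled array. That SD is technical and holds none of the spread between cultures.

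Zbtb17, the gene of Miz-1, read 8.73 in starved Hmhi, 8.72 in EGF-treated Hmhi, 9.07 in the Miz1 kd-labelled array and 8.71 in MYC-TA. It was not lower in the Miz1 kd-labelled array, so directions for that array are those of the array as labelled. Of 8 melanocyte markers, 7 were above the median in every array, Sox10 at 12.96 to 13.36 among them, while Tyr, the tyrosinase gene, was below it in every array. Others of these markers varied more than Sox10. For EGF-treated Hmhi minus starved Hmhi, Dct was at 1.48, Pmel at 1.51, Slc45a2 at 1.62 and Tyrp1 at -1.02. Against EGF-treated Hmhi, Dct was at -2.07 in the Miz1 kd-labelled array and Slc45a2 at -2.70 in MYC-TA. Of 12 leukocyte markers, 4 were above the median in starved Hmhi and 5 in each of the other arrays. The summed linear signal of those 12 was 5047 in starved Hmhi, 6273 in EGF-treated Hmhi, 4857 in the Miz1 kd-labelled array and 2735 in MYC-TA. Lyz2 alone gave 62.6% to 84.6% of each sum, and the other 11 summed to 1309, 968, 1057 and 1022 in that order. The defining leukocyte gene Ptprc read 4.09 to 4.58, and Itgam, Adgre1, Tyrobp, Cd53, Coro1a and Cd79a were also below the median in every array. Lyz2, Csf1r, Laptm5 and Cd3e were above it in every array, and Cd68 in the EGF arrays. Laptm5 read 7.225 to 7.558 and Cd3e 6.962 to 7.381. Of 8 fibroblast markers, 2 were above the median in the Miz1 kd-labelled array and 3 in each of the other arrays. In the order starved Hmhi, EGF-treated Hmhi, Miz1 kd-labelled and MYC-TA, Dcn read 11.50, 10.35, 9.45 and 11.56. Col3a1 read 6.59, 7.21, 6.25 and 9.69. Pdgfra did not share their order, at 7.40, 8.21, 8.24 and 7.93. Col1a2 was above the median only in starved Hmhi, at 6.97, and Col1a1, Lum, Thy1 and Dpt were below it in every array. The part of these markers in the member differences was not tested. The 3 control sets of 18S rRNA read 11.98 to 12.90 in starved Hmhi and 12.81 to 13.57 in EGF-treated Hmhi, and their part in any difference between these arrays was not tested.

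Few of the family were above the median of their array. In starved Hmhi 20 of 61 members were above it, in EGF-treated Hmhi 21, in the Miz1 kd-labelled array 21 and in MYC-TA 20. These are 32.8% and 34.4% of the members, against 60.3% of all genes in starved Hmhi, 61.4% in EGF-treated Hmhi, 60.8% in the Miz1 kd-labelled array and 62.4% in MYC-TA. In each array the members' share was thus well under that of all genes. Chemokines were above the median more often than interleukins, with 14 or 15 of 33 against 5 to 7 of 28. Over the 4 arrays, 18 members were above the median in all, 6 in 1 to 3 arrays and 37 in none. The 24 members that reached it comprise 16 chemokines and 8 interleukins.

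**Figure D1:**
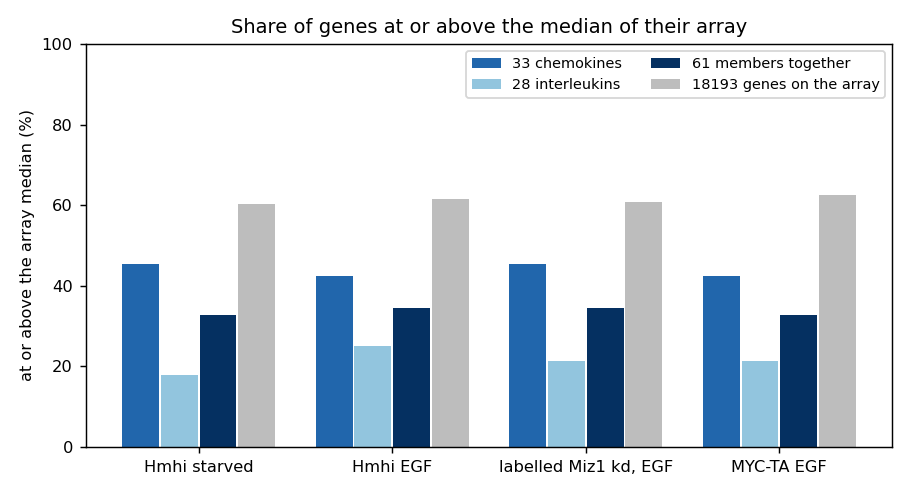
Share of genes at or above the median of their array (vertical axis, percent), for the chemokines, the interleukins, both together and all genes, in each of the 4 arrays. The bars of all genes lie at 60.3% to 62.4%, and those of the 61 members at 32.8% or 34.4%.

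The members above the median varied in how far their arrays lay apart. Of the 24, 8 had a range of under 0.5 over the 4 arrays and 11 a range of at least 1. A difference was called 2-fold where it reached 1 on the log2 scale and the brighter array was at or above its median. By that measure 9 of 61 members were 2-fold apart in at least 1 of the 4 comparisons, namely Ccl5, Ccl6, Ccl9, Cxcl10, Il11, Il17b, Il18, Il23a and Il33. That is 14.8%, against 13.3% of all genes. Both shares include genes that never reached the median and could not be called, which were more frequent among the members. All 9 were among the 24 members that reached it, so the nearness of these shares is not read as a likeness.

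**Figure D2:**
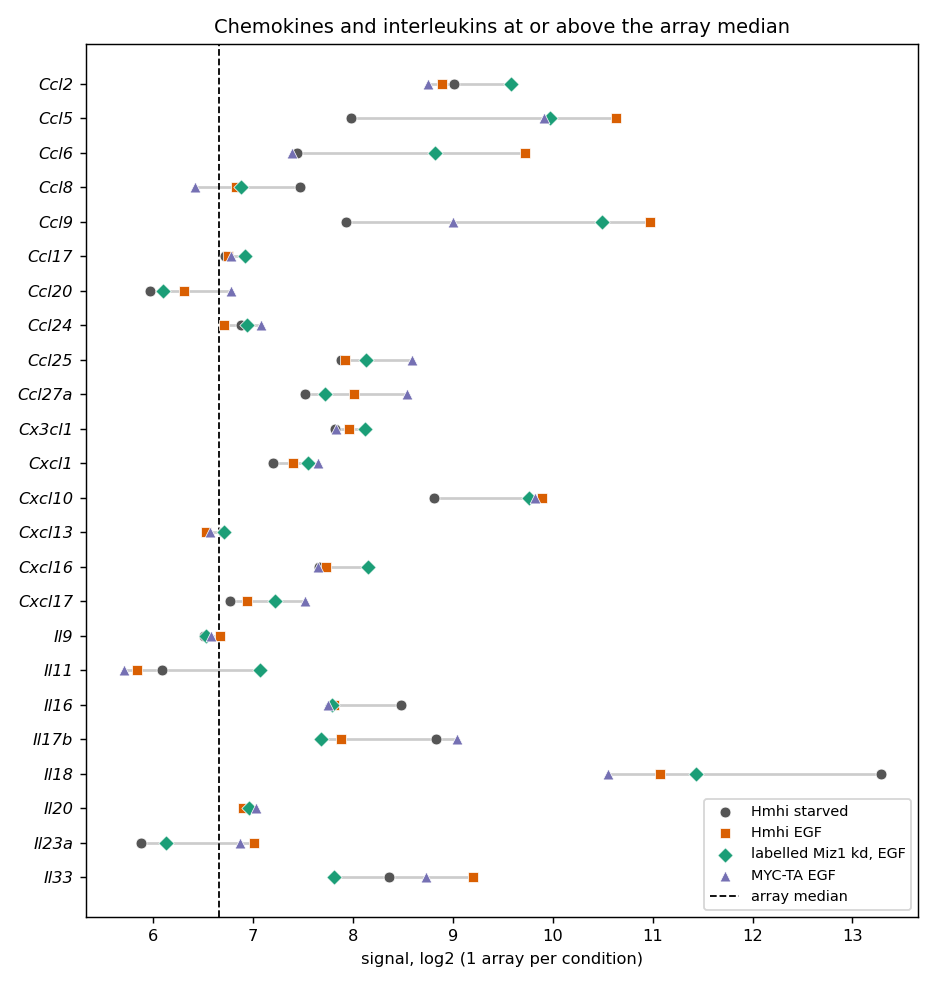
Level of each of the 24 members at or above the array median in at least 1 array (horizontal axis, log2 signal), with 1 point for each array and the median of 6.66 as a dashed line. Ccl5, Ccl6 and Ccl9 spread over more than 2 log2 units with EGF-treated Hmhi on the right, and Il18 spreads as widely with starved Hmhi on the right.

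The comparison of EGF-treated Hmhi with starved Hmhi asks what EGF did over 14 days. Ccl9, Ccl5, Ccl6, Cxcl10 and Il23a were at least 2-fold higher with EGF, and Il18 was at least 2-fold lower. These are 5 of the 22 members that passed the level filter, or 22.7%, against 7.98% of all genes that passed, and 1 lower member, 4.55%, against 4.96%. Of the 22, Il23a and Il9 passed only through the EGF array. The median difference of the 22 was 0.10, against 0.01 over all 11461 genes.

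Ccl9, a CC chemokine that attracts myeloid cells through CCR1, read 7.93 in starved Hmhi, 10.97 in EGF-treated Hmhi, 10.49 in the Miz1 kd-labelled array and 9.004 in MYC-TA. All 3 EGF arrays were above the starved array, by 3.05 (8.25-fold), 2.56 and 1.08. The dimmer of its 2 probe sets gave 7.12, 10.26, 9.73 and 8.35, the same order of arrays. In MYC-TA, Ccl9 was lower than in the other EGF arrays, at -1.97 (3.91-fold) against EGF-treated Hmhi and -1.49 against the Miz1 kd-labelled array.

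Ccl6, a close relative of Ccl9 with the same receptor, read 7.44 in starved Hmhi, 9.72 in EGF-treated Hmhi, 8.82 in the Miz1 kd-labelled array and 7.39 in MYC-TA. The MYC-TA level was thus close to that of the starved array, at -0.05 against it, and the Miz1 kd-labelled array lay between. EGF-treated Hmhi was above starved Hmhi by 2.28 (4.85-fold), and MYC-TA was at -2.33 (5.01-fold) against EGF-treated Hmhi. The second probe set read 5.96, 7.48, 6.30 and 5.75, above the median only in EGF-treated Hmhi, with the same order of arrays. Its difference between EGF-treated and starved Hmhi was 1.52, against 2.28 in the brighter set. Its difference between the Miz1 kd-labelled array and EGF-treated Hmhi was -1.18, against -0.89 in the brighter set.

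Ccl5, the chemokine also known as RANTES that attracts T cells and monocytes, read 7.98 in starved Hmhi, 10.63 in EGF-treated Hmhi, 9.97 in the Miz1 kd-labelled array and 9.91 in MYC-TA. The EGF-treated Hmhi array was 6.29-fold above the starved one. Unlike those of Ccl6, all 3 EGF levels of Ccl5 lay far above the starved one, by 2.65, 1.997 and 1.93. Against EGF-treated Hmhi it was at -0.65 in the Miz1 kd-labelled array and -0.72 in MYC-TA, both short of 2-fold.

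These genes adjoin each other in the genome. In the RefSeq gene table of GRCm38.p6 the protein-coding genes on chromosome 11 run Ccl5, Ccl9, Ccl6, Ccl3, Ccl4, Wfdc17, Wfdc18 and Wfdc21. Ccl3 read 4.36 to 4.52 and Ccl4 6.26 to 6.50, both below the median in all 4 arrays. Wfdc17 stayed between 7.05 and 7.44. Wfdc18, which encodes a small secreted WAP domain protein, read 8.27 in starved Hmhi, 13.39 in EGF-treated Hmhi, 9.71 in the Miz1 kd-labelled array and 13.07 in MYC-TA. Its probe set has the ending _s_at, which marks sets that can read several similar transcripts. Its high arrays were EGF-treated Hmhi and MYC-TA, whereas Ccl6 and Ccl9 were high in EGF-treated Hmhi and the Miz1 kd-labelled array. High levels were therefore not shared along the whole row of neighbours.

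**Figure D3:**
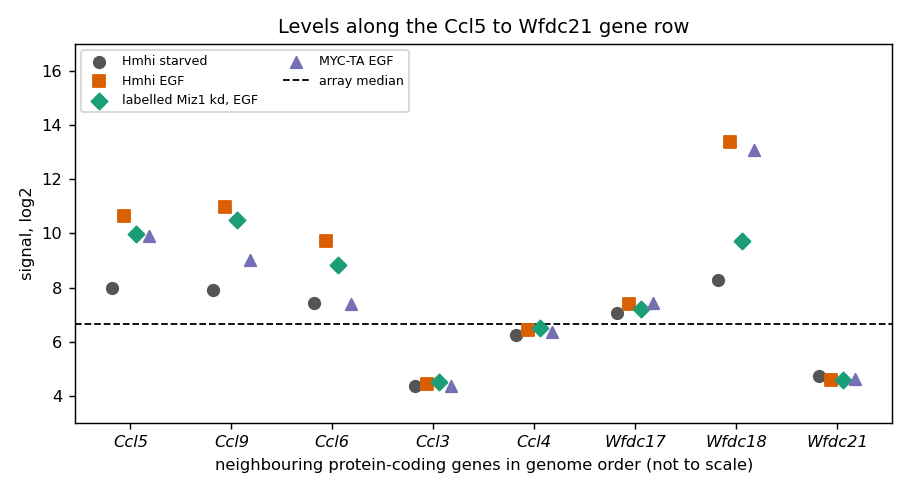
Level (vertical axis, log2 signal) of 8 neighbouring protein-coding genes of chromosome 11 in genome order, with 1 point for each array and the array median as a dashed line. Ccl5, Ccl9, Ccl6 and Wfdc18 differ between the arrays, while Ccl3, Ccl4, Wfdc17 and Wfdc21 lie together.

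Lyz2, a leukocyte marker that encodes lysozyme, was highest in EGF-treated Hmhi and lowest in MYC-TA, as Ccl6 was. It read 11.87 in starved Hmhi, 12.37 in EGF-treated Hmhi, 11.89 in the Miz1 kd-labelled array and 10.74 in MYC-TA. Its levels in starved Hmhi and the Miz1 kd-labelled array were alike, where Ccl6 and Ccl9 were far apart, and its MYC-TA level lay below the starved one, where that of Ccl9 lay above. Cd68, another marker of the list, read 6.55 in starved Hmhi and 8.05 to 8.28 in the EGF arrays, and Csf1r read 9.41 in starved Hmhi and 6.72 to 6.87 in the EGF arrays. In bulk RNA, fewer cells of a type and less RNA per cell cannot be told apart, and the part of these markers in the chemokine differences was not tested.

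Other CC chemokines that attract monocytes or eosinophils were 2-fold apart in none of the 4 comparisons. Ccl2, the main monocyte attractant MCP-1, read 9.01 in starved Hmhi, 8.89 in EGF-treated Hmhi, 9.58 in the Miz1 kd-labelled array and 8.75 in MYC-TA. The Miz1 kd-labelled array was the highest, 0.69 above EGF-treated Hmhi, which is short of 2-fold. Ccl8 read 7.47, 6.83, 6.88 and 6.42 in the same order of arrays, with starved Hmhi the highest. Ccl24, a ligand of CCR3 on eosinophils, stayed between 6.71 and 7.08. Ccl7, Ccl11 and Ccl12, which lie in 1 row with Ccl2 and Ccl8, were below the median in every array, at 4.33 to 6.14.

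Among the remaining CC chemokines, Ccl25 and Ccl27a were highest in MYC-TA. Ccl25, which attracts T cells to thymus and gut, read 7.88 in starved Hmhi, 7.92 in EGF-treated Hmhi, 8.13 in the Miz1 kd-labelled array and 8.59 in MYC-TA, and its dimmer set also read highest in MYC-TA. Ccl27a, a skin chemokine made mostly by keratinocytes, read 7.52, 8.01, 7.72 and 8.54 in that order. Its probe set has the ending _x_at, which marks sets that can read similar sequences, and Ccl27a has near-identical copies in the mouse genome, so its value is uncertain. Ccl17 stayed between 6.72 and 6.92. Ccl20, the ligand of CCR6, was above the median only in MYC-TA, at 6.77 against 5.97, 6.31 and 6.10. Ccl1, Ccl22 and Ccl28 were below the median in every array.

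Cxcl10, an interferon-inducible ligand of CXCR3, read 8.81 in starved Hmhi, 9.89 in EGF-treated Hmhi, 9.76 in the Miz1 kd-labelled array and 9.82 in MYC-TA. The 3 EGF arrays lay within 0.13 of each other and all above the starved array. EGF-treated Hmhi was higher than starved Hmhi by 1.08 (2.12-fold), just past the 2-fold threshold, and the Miz1 kd-labelled array by 0.95, just short of it. The other ligands of CXCR3, Cxcl9 and Cxcl11, were below the median in every array, at 4.16 to 6.19. Cxcr3 itself read 6.20 in starved Hmhi, 8.03 in EGF-treated Hmhi, 7.23 in the Miz1 kd-labelled array and 7.21 in MYC-TA, and was thus also highest in EGF-treated Hmhi.

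Promoters are shown for Ccl9 and Ccl6, which had the same order of the EGF arrays, for Cxcl10, and for Il18, which differed in the opposite direction with EGF. Each sequence is the 250 bases before the RefSeq start of the gene in GRCm38.p6, and capitals mark motif matches on either strand. The Ccl9 window is chr11:83578637-83578886 and the Ccl6 window chr11:83593088-83593337, both on the minus strand. The Cxcl10 window is chr5:92348890-92349139 on the minus strand and the Il18 window chr9:50554450-50554699 on the plus strand.
Ccl9: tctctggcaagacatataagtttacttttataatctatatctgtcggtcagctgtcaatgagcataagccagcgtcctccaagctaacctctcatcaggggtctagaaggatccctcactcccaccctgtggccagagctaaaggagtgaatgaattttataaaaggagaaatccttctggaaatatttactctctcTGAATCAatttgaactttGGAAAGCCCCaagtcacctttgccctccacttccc
Ccl6: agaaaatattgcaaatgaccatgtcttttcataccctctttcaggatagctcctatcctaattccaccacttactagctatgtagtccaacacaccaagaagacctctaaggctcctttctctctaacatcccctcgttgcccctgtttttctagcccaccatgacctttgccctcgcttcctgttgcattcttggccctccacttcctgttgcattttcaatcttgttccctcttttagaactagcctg
Cxcl10: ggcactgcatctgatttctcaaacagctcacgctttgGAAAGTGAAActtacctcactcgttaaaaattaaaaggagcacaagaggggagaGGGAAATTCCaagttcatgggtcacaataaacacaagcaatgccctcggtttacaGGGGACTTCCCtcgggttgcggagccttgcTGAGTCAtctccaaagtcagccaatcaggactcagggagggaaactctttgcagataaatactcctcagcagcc
Il18: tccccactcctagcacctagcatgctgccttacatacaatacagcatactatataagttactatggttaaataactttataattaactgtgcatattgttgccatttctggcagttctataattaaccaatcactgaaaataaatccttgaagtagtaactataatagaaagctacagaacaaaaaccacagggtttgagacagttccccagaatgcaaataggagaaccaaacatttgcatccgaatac

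The motifs searched were the ISRE core (GAAA, any 2 bases, GAAA), which interferon regulatory factors bind, the NF-kB consensus, the AP-1 motif TGANTCA and the GAS motif TTCNNNGAA, which STAT factors bind. In Cxcl10 the window held 1 ISRE core at 213 to 204 bases before the start and 1 AP-1 motif. It also held 3 NF-kB matches, of which those starting at 104 and 103 bases before the start overlap. In Ccl9 there was 1 NF-kB match at 35 to 26 bases before the start and 1 AP-1 motif at 53 to 47. Neither Ccl6 nor Il18 held any of the 4 motifs in this window, and no GAS motif was found in the 4 windows shown. Of all 32851 promoter windows of this length, 2.98% held the ISRE core, 7.25% the NF-kB consensus, 6.75% the AP-1 motif and 7.02% the GAS motif. A window was at hand for 43 of 61 members, of which 3 held the ISRE core, 9 the NF-kB consensus, 9 the AP-1 motif and 2 the GAS motif. A member was counted where any of its windows matched, whereas the percentages are of single windows. The counts and the percentages are therefore of unlike units and are not compared. These matches describe the letters and were not tested for binding.

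Of the 5 neutrophil-attracting chemokines with the ELR motif, only Cxcl1 came above the median. Cxcl1, a ligand of CXCR2 and a known senescence-associated factor, read 7.19 in starved Hmhi, 7.40 in EGF-treated Hmhi, 7.55 in the Miz1 kd-labelled array and 7.65 in MYC-TA on the probe set used. Its range of 0.46 is small. That set and the one at 7.22 to 7.61 have endings that mark possible reading of similar sequences, while the third set, with a plain ending, was below the median in every array at 4.56 to 5.06. Whether Cxcl1 was above the median thus depended on the set. Cxcl2, Cxcl3, Cxcl5 and Cxcl15 were below it in every array, at 3.47 to 6.20.

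Of the other CXC chemokines and their relatives, Cxcl16, Cxcl17 and Cx3cl1 were above the median in all arrays on the sets used. Cxcl16, a membrane-bound ligand of CXCR6, read 8.15 in the Miz1 kd-labelled array and 7.65 to 7.73 in the other 3. Its second set was below the median in every array, at 5.046 to 5.245. Cxcl17, a mucosal chemokine, read 6.77 in starved Hmhi, 6.94 in EGF-treated Hmhi, 7.22 in the Miz1 kd-labelled array and 7.52 in MYC-TA. Cx3cl1, or fractalkine, stayed between 7.82 and 8.12 on the set used, but its sets disagreed. A second set read 6.19 in starved Hmhi and 7.33 to 7.64 in the EGF arrays, a difference of 1.27 for EGF-treated Hmhi minus starved Hmhi against 0.14. The remaining Cx3cl1 sets were below the median in every array, at 4.409 to 5.376. Cxcl13 lay at the median on the set used, at 6.52 to 6.70, and its other set was below the median, at 5.165 to 5.455. Cxcl12, Cxcl14 and Xcl1 were below it in every array.

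**Figure D4:**
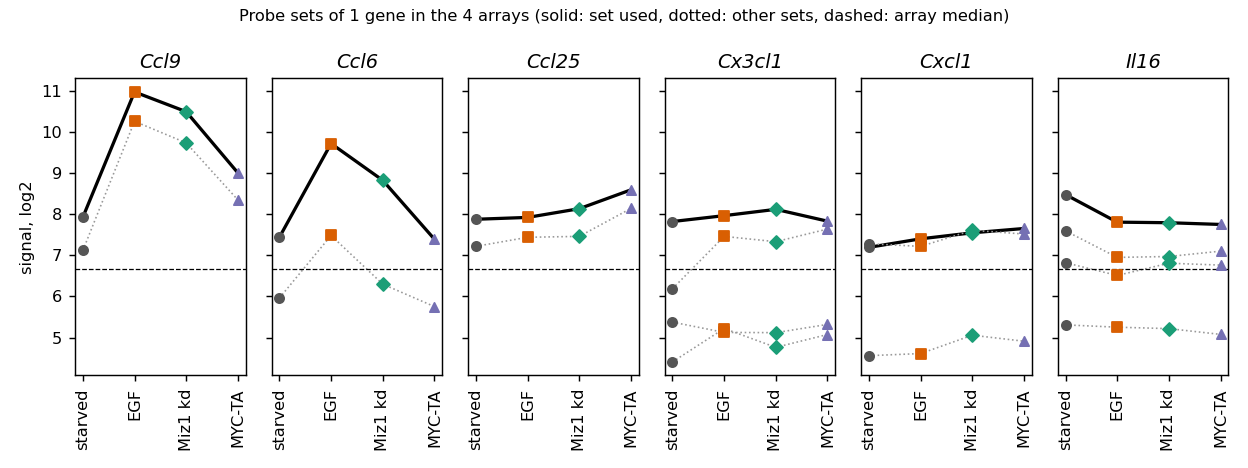
Probe sets of 6 members with several sets, each panel with the 4 arrays on the horizontal axis and log2 signal on the vertical axis. The solid line joins the set used and the dotted lines the others; the lines only join points of 1 set. The sets of Ccl9 and of Ccl25 run alike. Those of Ccl6 share the order of arrays but differ in level and in the step from starved to EGF. Those of Cx3cl1 and Cxcl1 differ in level or in that step.

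Il18 was the interleukin with the widest range. The gene encodes a cytokine of the IL-1 family that is stored as an inactive precursor and is cleaved by caspase-1. It read 13.28 in starved Hmhi, 11.08 in EGF-treated Hmhi, 11.43 in the Miz1 kd-labelled array and 10.55 in MYC-TA. EGF-treated Hmhi was at -2.21 (4.61-fold) against starved Hmhi, and all 3 EGF arrays were below the starved one. Among the EGF arrays the Miz1 kd-labelled array was 0.35 above EGF-treated Hmhi and MYC-TA was at -0.52. Casp1, the gene of caspase-1, read 10.01, 9.95, 9.50 and 9.31 in the same order of arrays. Il18bp, whose product binds and blocks IL-18, read 7.601 in starved Hmhi, 8.08 in EGF-treated Hmhi, 8.45 in the Miz1 kd-labelled array and 7.61 in MYC-TA.

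Il33, another cytokine of the IL-1 family that is kept in the nucleus and released by damaged cells, read 8.36 in starved Hmhi, 9.20 in EGF-treated Hmhi, 7.81 in the Miz1 kd-labelled array and 8.73 in MYC-TA. The Miz1 kd-labelled array was the lowest, at -1.39 (2.62-fold) against EGF-treated Hmhi, and EGF-treated Hmhi the highest, 0.84 above starved Hmhi. Il1a and Il1b, the classical inflammatory members, were below the median in every array, at 4.06 to 6.21.

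In the IL-6 and IL-12 families only Il11 and Il23a came above the median in any array. Il11, a cytokine that signals through gp130, read 6.09 in starved Hmhi, 5.84 in EGF-treated Hmhi, 7.07 in the Miz1 kd-labelled array and 5.70 in MYC-TA. It was above the median only in the Miz1 kd-labelled array, by 1.23 against EGF-treated Hmhi, a fold that background limits. Il23a, which encodes the p19 subunit of IL-23, read 5.88, 7.01, 6.13 and 6.87 in the same order. It was above the median in EGF-treated Hmhi and MYC-TA, and the difference of 1.13 with EGF again starts from a dim signal. Il6 read 4.96 in starved Hmhi and 3.92 to 4.18 in the EGF arrays, and Il12a, Il12b and Il31 were likewise below the median throughout.

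Il17b, a member of the IL-17 family that signals through IL-17RB, read 8.84 in starved Hmhi, 7.88 in EGF-treated Hmhi, 7.68 in the Miz1 kd-labelled array and 9.04 in MYC-TA. The starved and MYC-TA arrays were high and the other 2 low. MYC-TA was higher than EGF-treated Hmhi by 1.16 (2.23-fold), and EGF-treated Hmhi was at -0.95 against starved Hmhi, just short of 2-fold. Il16, a chemoattractant for CD4+ cells, read 8.48 in starved Hmhi and 7.75 to 7.81 in the EGF arrays, a difference of -0.67 for EGF-treated Hmhi that a second set gave as -0.65. The other Il16 sets, at 6.51 to 6.82 and 5.08 to 5.31, gave -0.31 and -0.06.

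The remaining interleukins above the median were close to it. Il20, of the IL-10 family, stayed between 6.90 and 7.03, and Il9 between 6.51 and 6.66. The growth and differentiation factors of T and B cells, Il2, Il4, Il7, Il13, Il15 and Il21, were below the median in every array, as were Il10, Il24, Il17a, Il17d, Il25, Il3, Il5 and Il34. Among the 37 members below the median in every array, 30 had a range of under 0.5 over the arrays, with a median range of 0.28.

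The next pair of arrays, the Miz1 kd-labelled array and EGF-treated Hmhi, addresses the effect of the construct in cells with EGF. Il11 was the 1 member at least 2-fold higher of the 23 that passed the level filter, or 4.35%, against 0.29% of all genes. Il33 was the 1 member at least 2-fold lower, again 4.35%, against 2.5% of all genes. A count of 1 leaves these shares coarse. Cxcl13 and Il11 passed only through the Miz1 kd-labelled array. The median difference of the 23 was 0.06, against 0.02 over all 11394 genes. Ccl6, Il23a and Ccl5 had differences of -0.89, -0.88 and -0.65, and Ccl2 and Cxcl16 were 0.69 and 0.42 higher.

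The effect of MYC-TA in cells with EGF is addressed by its array minus that of EGF-treated Hmhi. Il17b was the 1 member of 22 at least 2-fold higher, 4.55% against 1.3% of all genes. Ccl6 and Ccl9 were at least 2-fold lower, 9.09% against 1.65% of all genes. The median difference of the 22 was -0.07, against 0.04 over all 11534 genes. Both comparisons, and that with starved Hmhi, use the EGF-treated Hmhi array, so a deviation of that 1 array would enter each of them.

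Set directly against the Miz1 kd-labelled array, which leaves the EGF-treated Hmhi array out, MYC-TA was lower in Ccl9, at -1.49, and in Ccl6, at -1.43. The second Ccl6 set gave -0.545, short of 2-fold. Il11 was also lower, at -1.36, and Il17b was higher by 1.36. These were the 3 lower and the 1 higher member of 23, or 13.0% and 4.35%, against 4.26% and 6.72% of all genes. Il11 passed only through the Miz1 kd-labelled array, where it is high. Il33, Ccl2 and Il18 came near, at 0.92, -0.83 and -0.88. Their median difference was -0.04, against 0.04 over all 11613 genes.

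**Figure D5:**
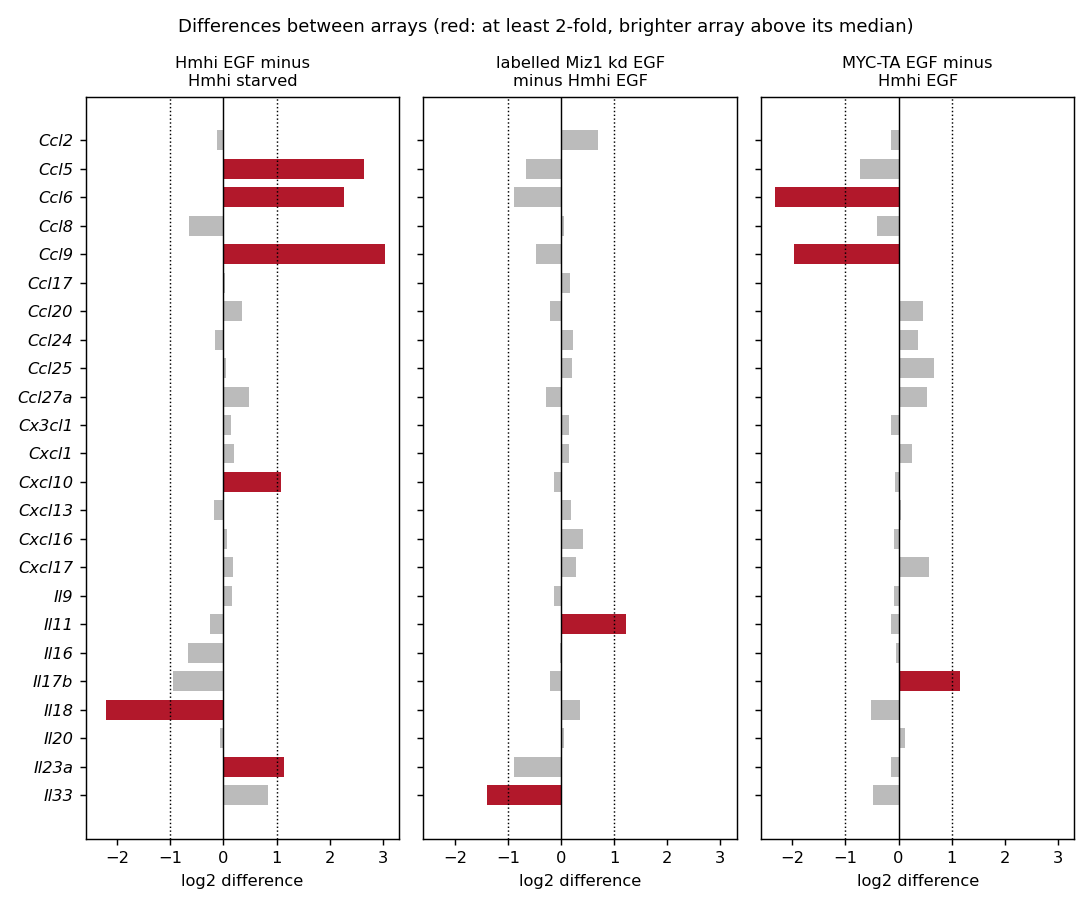
Log2 differences (horizontal axis) of the same 24 members between pairs of arrays, in red where at least 2-fold with the brighter array above its median and with dotted lines at 2-fold. Ccl5, Ccl6, Ccl9, Cxcl10 and Il23a are red and positive for EGF, Il18 is red and negative, and Ccl6 and Ccl9 are red and negative again for MYC-TA.

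Receptors of both families were read from lists chosen beside the members. Of 21 chemokine receptors on the array, 4 passed the level filter in the EGF comparison, and Cxcr3 and Ackr3 were at least 2-fold higher, or 50% against 7.98% of all genes. Both passed only through the EGF array, where they are high, so nothing is read from that share. Ackr3, an atypical receptor that scavenges CXCL12, read 5.53 in starved Hmhi, 8.10 in EGF-treated Hmhi, 5.72 in the Miz1 kd-labelled array and 8.16 in MYC-TA. It was thus above the median in EGF-treated Hmhi and MYC-TA alone, while its ligand gene Cxcl12 was at 5.18 to 5.57 throughout. The Ackr3 set ends in _s_at and can read several similar transcripts. Of 37 interleukin receptors, 12 passed, 4 were at least 2-fold higher with EGF and 0 at least 2-fold lower, or 33.3% against 7.98% of all genes and 0% against 4.96%. Il6ra, Il12rb1 and Il17rd passed only through the EGF array, so this share is no support either. No p-value accompanies these counts, since there is 1 array on each side.

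The 4 higher receptors were Il4ra, Il6ra, Il12rb1 and Il17rd. Il4ra, the receptor chain for IL-4 and IL-13, read 7.21 in starved Hmhi, 9.16 in EGF-treated Hmhi, 9.17 in the Miz1 kd-labelled array and 8.35 in MYC-TA. Il12rb1, a chain shared by the receptors of IL-12 and IL-23, read 6.38, 8.26, 8.33 and 6.62 in that order, high in 2 arrays and below the median in the others. Il17rd, which is also known as Sef and dampens growth factor signalling, read 6.45 in starved Hmhi and 9.04 to 9.38 in the EGF arrays. Il6ra read 6.60 in starved Hmhi and 7.68 to 8.48 in the EGF arrays. Il6st, the gp130 chain through which IL-6 and IL-11 signal, stayed between 10.38 and 10.70.

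Genes that act upstream and downstream of these cytokines were read in the same way. Of 20 genes of the NF-kB pathway on the array, 16 passed the level filter in the EGF comparison and 0 were 2-fold apart in either direction, against 7.98% of all genes higher and 4.96% lower, with a median of -0.12. The same 0 of 16 was found for the Miz1 kd-labelled array and 0 of 17 for MYC-TA, each against EGF-treated Hmhi, where 0.29% and 1.3% of all genes were higher and 2.5% and 1.65% lower. In MYC-TA minus the Miz1 kd-labelled array, 3 of 17 were at least 2-fold lower, or 17.6% against 4.26% of all genes, and 0 were higher, against 6.72%. The 3 were Nfkbiz, Ikbke and Tnip1, at -1.14, -1.04 and -1.26. Another list held interferon regulatory factors, STAT factors and JAK kinases, of which 13 passed. Jak1 was at -1.48 for EGF-treated Hmhi minus starved Hmhi, and Irf9 at -1.02 for the Miz1 kd-labelled array minus EGF-treated Hmhi. Each was the 1 lower gene of 13, or 7.69%, against 4.96% of all genes in the first comparison and 2.5% in the second. In both, 0 were higher, against 7.98% and 0.29% of all genes. A count of 1 leaves these shares coarse. Socs3, a feedback inhibitor of gp130 signalling, read 12.47 in starved Hmhi, 10.97 in EGF-treated Hmhi, 11.68 in the Miz1 kd-labelled array and 10.47 in MYC-TA. The Socs3 set ends in _x_at and can read similar sequences. Of 17 other secreted factors of senescent cells on the array, 8 passed in each comparison with EGF-treated Hmhi and 0 were 2-fold apart. Over all genes, 7.98% were higher and 4.96% lower with EGF. The shares were 0.29% and 2.5% for the Miz1 kd-labelled array, and 1.3% and 1.65% for MYC-TA. Of 8 genes, 0 is near such shares, so nothing is read from this count. The list of secreted factors includes the members Ccl2, Cxcl1 and Il6.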

How the data were processed

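The values are the authors' deposited table of 45101 probe sets on 4 arrays, which run from 2.94 to 15.12 and were therefore read as log2 signals. The labels state neither the log base, the summarization nor the normalization. After sorting, the columns differed by at most 0.004, so the authors had equalized the arrays before they deposited the log2 values, which hides any shift common to all genes. Per the labels' protocols, 100 ng of total RNA was the input for biotin-labelled cRNA. The platform annotation of 2016 gave 1 symbol for 34945 probe sets and several for 932, which name no gene here, and none for 9160 others beside 64 control sets. All 61 members matched the RefSeq gene table by Entrez identifier, with 0 symbols changed. Comparisons took in the genes whose brighter array reached its own median. Every member above the median in at least 1 array was named, and of other lists up to 4 genes 2-fold apart or the receptor or partner of a named member. Lyz2, Cd68, Csf1r and Wfdc18 were chosen after their values were seen, and so were partners such as Casp1 and Il18bp. The members and lists were chosen with earlier results of these data known. The steps were tested on simulated data. The number of arrays limits the precision. Python 3.11.15, pandas 2.3.3, numpy 2.4.6, statsmodels 0.14.6 and matplotlib 3.10.9 were used.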

Additional observations from a re-analysis of the deposited data

How the results depend on the processing

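No paired analysis was possible because there was 1 array of each condition, and none could be left out. A common median, quantile normalization and a loess correction with span 0.4 moved no count of members by over 1.5 times, and all 15 two-array differences of named members that were 2-fold stayed so; the arrays were already normalized. With the mean of all probe sets 14 of the 15 stayed, without Ccl6 in MYC-TA minus the Miz1 kd-labelled array at -0.99, and 2 members instead of 1 were 2-fold lower in the Miz1 kd-labelled array than in EGF-treated Hmhi. With only plain _at sets, which 54 members have, no member was 2-fold higher in MYC-TA, 0 against either other array, since Il17b has no such set, and the other 13 stayed. Counted against the 75th percentile, 4 members were above it in starved Hmhi, 7 in EGF-treated Hmhi, 6 in the Miz1 kd-labelled array and 5 in MYC-TA. With that level as the filter, 8 members passed with EGF and their median difference was 0.96. The median was then -0.48 for the Miz1 kd-labelled array minus EGF-treated Hmhi, a reversed sign, with 0 members 2-fold higher. It was -0.50 for MYC-TA minus EGF-treated Hmhi and -0.83 for MYC-TA minus the Miz1 kd-labelled array. With no level filter the median for MYC-TA minus EGF-treated Hmhi turned to 0.029. The cause of these shifts was not tested. Signals near the median cannot be told from background.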

Other observations

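A further 6 probe sets carry several symbols with a chemokine or interleukin among them, and name no gene here. Of these, 3 were above the median in all 4 arrays and 3 in none. In 1 of the first 3 the MYC-TA array was 1.005 above the Miz1 kd-labelled array on the log2 scale, at 8.66 against 7.66, and above EGF-treated Hmhi by 0.71.

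Members below the median in every array included some with a range of over 0.9. Il34, a ligand of the CSF-1 receptor, read 5.55 in starved Hmhi, 6.15 in EGF-treated Hmhi, 6.64 in the Miz1 kd-labelled array and 5.89 in MYC-TA, just short of the median at its highest. Il6 was highest in starved Hmhi, at 4.96, with 4.18, 3.92 and 4.16 in the EGF arrays. Cxcl11 read 5.74, 5.90, 5.23 and 6.19 in the same order of arrays, and Cxcl2 3.48, 3.83, 3.98 and 4.42, both highest in MYC-TA. These dim values have no call and are given as values alone.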
